A study of Mus musculus with 2 samples.

Results

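Interferon-responsive T cells are T cells that carry the transcripts of genes switched on by interferons, the cytokines by which cells warn each other of infection or nucleic acid in the wrong place. They were studied here in melanoma tumours of C57BL/6J mice, in 1 droplet library that pooled hashtagged cells of 4 mice treated with the bacterium Lactobacillus reuteri (LR) and 4 mice treated with PBS. Per the labels' protocols, tumour cells were enriched for CD90.2, a surface protein of T cells, and live CD8+ cells were sorted from each animal, while the labels' cell type field reads CD3+; no tumour line, dose, age or sex is given in the sources used here. Treatment and mouse number were read from the hashtag names (LR mice 1 to 4, PBS mice 6 to 9), and all mice were C57BL/6J bearing tumours.

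Members were selected on measured expression, chosen by transcripts of the gate genes named here. A barcode was a member when it had at least 500 genes, at most 10% mitochondrial UMIs (unique molecular identifiers, each 1 captured RNA molecule), 1 hashtag with at least 80% of its hashtag UMIs, at least 1 UMI of Cd3e, Cd3d or Cd3g, no UMI of the macrophage gene Lyz2, and a UMI of at least 2 of the 6 gate genes Ifit1, Ifit3, Ifit3b, Rsad2, Cmpk2 and Usp18. Of 16969 barcodes, 14474 passed the filter on genes and mitochondrial UMIs, 10713 of these had 1 such hashtag, 10285 were T cells, and 330 T cells were members. A further 1264 T cells had exactly 1 gate gene, and 8691 had none and served as the comparison ("none" cells). The members held 1508445 gene UMIs in all, 86237 to 373693 per mouse, and the none cells 2036739 to 8000012 per mouse. Members were somewhat deeper, with a median of 3887.5 UMIs per cell against 3327 in none cells. The animals' cells of a treatment were pooled after the sort, all cells came from 1 library, and no barcode was listed more than once.

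Type I interferons bind the receptor made of IFNAR1 and IFNAR2, whose kinases activate transcription factors of the STAT family. With IRF9 these form a complex that binds the interferon-stimulated response element in promoters of antiviral genes, while interferon gamma acts through IFNGR1 and IFNGR2, which signal without IRF9. The 6 gate genes are antiviral targets of this pathway: the IFIT proteins bind foreign RNA, RSAD2 (viperin) makes a chain-terminating nucleotide, CMPK2 is a nucleotide kinase of the same locus, and USP18 removes ISG15 from proteins and dampens the receptor.

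Where RefSeq gives a promoter window, the core of that element was looked for in the 250 bases before and 50 bases after the gene start (GRCm38.p6). The core was spelled GAAANNGAAA and searched on both strands, matches being allowed to overlap. Of 32851 windows, 1131 (3.44%) held it. Windows existed for 5 of the 6 gate genes, and 4 of these held a core. The windows of 4 gate genes and of Isg15, whose level was not used by the gate, are shown because their transcripts are the ones the results turn on. They are written 5′ to 3′ on the strand of the gene, with each match to the core in capitals.

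Ifit1, chr19:34640639-34640938, plus strand: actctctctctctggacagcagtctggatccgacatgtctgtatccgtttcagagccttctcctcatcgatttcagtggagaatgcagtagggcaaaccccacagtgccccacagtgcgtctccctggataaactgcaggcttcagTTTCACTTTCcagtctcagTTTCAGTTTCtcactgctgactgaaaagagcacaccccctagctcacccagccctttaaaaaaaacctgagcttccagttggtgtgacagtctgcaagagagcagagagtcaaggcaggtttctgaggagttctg
Ifit3, chr19:34583279-34583578, plus strand: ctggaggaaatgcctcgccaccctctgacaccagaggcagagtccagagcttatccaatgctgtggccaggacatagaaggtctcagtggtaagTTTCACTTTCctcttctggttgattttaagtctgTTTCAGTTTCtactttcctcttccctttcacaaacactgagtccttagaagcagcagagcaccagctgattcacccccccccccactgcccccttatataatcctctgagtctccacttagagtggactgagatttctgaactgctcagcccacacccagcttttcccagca
Ifit3b, chr19:34607707-34608006, plus strand: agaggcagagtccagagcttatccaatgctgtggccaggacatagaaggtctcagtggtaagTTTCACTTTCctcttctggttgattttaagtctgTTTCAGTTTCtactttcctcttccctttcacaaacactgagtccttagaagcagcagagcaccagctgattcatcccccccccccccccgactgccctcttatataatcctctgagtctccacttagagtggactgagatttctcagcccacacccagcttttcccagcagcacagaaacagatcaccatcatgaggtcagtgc
Rsad2, chr12:26456403-26456702, minus strand: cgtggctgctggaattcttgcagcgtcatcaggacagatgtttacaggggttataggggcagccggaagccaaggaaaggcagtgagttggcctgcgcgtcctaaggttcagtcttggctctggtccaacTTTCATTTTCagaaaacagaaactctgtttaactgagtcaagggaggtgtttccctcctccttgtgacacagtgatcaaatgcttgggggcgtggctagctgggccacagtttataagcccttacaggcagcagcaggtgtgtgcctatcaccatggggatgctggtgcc
Isg15, chr4:156200769-156201068, minus strand: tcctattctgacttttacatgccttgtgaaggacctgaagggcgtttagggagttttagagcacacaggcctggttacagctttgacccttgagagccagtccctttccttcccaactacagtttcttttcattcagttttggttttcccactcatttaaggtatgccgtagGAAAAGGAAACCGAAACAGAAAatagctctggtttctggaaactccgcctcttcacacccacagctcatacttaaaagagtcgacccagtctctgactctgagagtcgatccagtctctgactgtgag

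Isg15 held 3 overlapping cores on the strand of the gene, which begin 78, 72 and 66 bases before its start. In Ifit1, Ifit3, Ifit3b and Rsad2 the cores lie on the opposite strand, so that the capitals read as the reverse complement. Ifit3 and Ifit3b are neighbours on chromosome 19. With gaps and overhanging ends left out, their windows were identical at 259 of 260 aligned bases (99.6%). Their longest coding transcripts, counted in the same way, were identical at 1663 of 1697 aligned bases. Reads may therefore be split between this pair, and 15 of the 330 members rested on the pair alone. Cmpk2, on chromosome 12 beside Rsad2, held no match in its window. A match describes these letters and not a bound site.

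The 6 gate genes chose the members, so their levels are a description. Ifit1 was present in 232 members (70.3%), Ifit3 in 188 (57.0%), Usp18 in 184 (55.8%), Ifit3b in 121 (36.7%), Cmpk2 in 104 (31.5%) and Rsad2 in 70 (21.2%). In members with a UMI of a gate gene, the median was 1 UMI for every one of the 6. Ifit1 and Ifit3 were found together in 124 members, and Ifit1 and Usp18 in 122. Just inside the threshold stood 203 members with exactly 2 gate genes, and just outside it the 1264 T cells with 1, among which Usp18 (35.4% of them) and Ifit1 (28.1%) were the gene most often present. Only 17 cells held all 6 genes, from 7 of the 8 mice.

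The label was checked against Isg15, the label marker that the gate did not use; it encodes a ubiquitin-like protein attached to other proteins after interferon exposure. Isg15 was at 30.7 UMIs per 1e6 UMIs (CPM, used for all levels) over all cells with none of the 6 genes and at 57.3 CPM with 1 gene. It reached 253 CPM with 2 genes, 704 with 3, 1030 with 4, 1274 with 5 and 2774 CPM with 6. Cells with an Isg15 UMI were 9.84% of none cells, 43.3% of cells with 2 gate genes, and all of those with 5 or 6. The same grading was seen for Bst2, which encodes tetherin, at 124, 188, 348, 544, 804, 947 and 1141 CPM with 0 to 6 gate genes. Ifngr1 showed no such grading, with 565 CPM at 0 and 515 CPM at 6 gate genes. These are levels pooled over cells of all mice, without a test, and the classes differed in depth, from a median of 3327 UMIs at 0 to 4551 at 6.

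**Figure D1:**
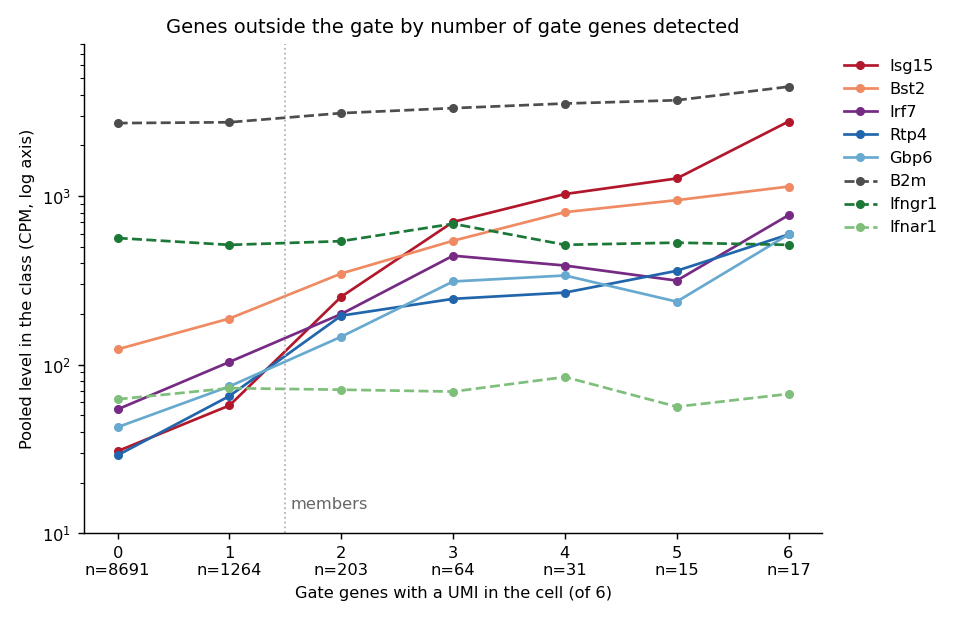
Pooled level (CPM, log axis) of 8 genes outside the gate against the number of gate genes with a UMI in the cell, with the number of T cells of each class under the axis. Isg15, Bst2, Irf7, Rtp4 and Gbp6 are higher in every class of members than at 0 or 1 gate gene, B2m rises slightly, and Ifngr1 and Ifnar1 stay level.

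Barcodes that the T cell rule left out were also looked at, though many of them held T cell transcripts. Of 66 barcodes with a Lyz2 UMI, 6 (9.09%; exact Clopper-Pearson 95% interval 3.41 to 18.7) held at least 2 gate genes. Of 362 barcodes with neither CD3 nor Lyz2, 5 did (1.38%; 0.45 to 3.19), at a median of 944.5 UMIs. Of the 66, 51 had a CD3 UMI and 43.9% had a CD8 UMI. Of the 362, 34.0% had a CD8 UMI. Neither group is therefore a set of cells other than T cells. Intervals of shares cover counting error only.

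Genes outside the gate were then compared between members and none cells of the same 8 mice, with UMIs summed per mouse and mouse as a block (edgeR quasi-likelihood test). Of 8142 genes tested, 250 were higher in members (3.07%) and 123 lower (1.51%), at an adjusted p of 0.05 or less, and the median log2 ratio over all tested genes was -0.02. The higher genes included 36 antiviral effectors, 17 genes listed as interferon gamma targets and 15 of the MHC class I pathway. The lower ones included 10 cycling genes, 7 exhaustion genes and the chemokines Ccl3, Ccl4 and Xcl1. Cells were split by transcripts of their own RNA, and members were deeper than none cells. In CD8 cells alone, 202 of 7108 genes were higher (2.84%) and 150 lower (2.11%), with an overall median of -0.03. Without the mouse block 164 were higher and 15 lower in all lineages, and 129 and 22 in CD8 cells. Fits on members with at least 3 gate genes left out PBS mouse 6, which had 8 such members against a minimum of 10. In CD8 cells those fits used only mice with at least 10 such CD8 members. Calls lost with at least 3 gate genes therefore also reflect fewer cells and mice.

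Among antiviral effectors, 36 of 37 tested genes were higher in members, with a median log2 ratio of 1.89; Ifitm2 was the tested gene that did not pass. Isg15 stood at 247, 651 and 1077 CPM in members (lowest, median and highest of 8 mice), against 22.4, 26.8 and 43.5 CPM in none cells. The groups did not overlap, and the log2 ratio was 4.44 ± 0.14 (SE; edgeR adjusted p = 1.3e-23). Rtp4, a chaperone-like membrane protein, was at 155, 249 and 377 CPM in members against 18.8, 27.4 and 40.8 CPM in none cells (log2 ratio 3.21 ± 0.16). Oasl2, of the oligoadenylate synthetase-like family, was rarer, at 14.1, 30.8 and 67.9 CPM against 1.96, 3.59 and 7.25 CPM (log2 ratio 3.31 ± 0.35). For both genes the lowest mouse of the members lay above the highest of the none cells.

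Bst2 was at 353, 515 and 1090 CPM in members and 106, 115 and 146 CPM in none cells, a log2 ratio of 2.18 ± 0.12, with the highest level in PBS mouse 6. Slfn5, of the Schlafen family, was at 46.4, 129 and 159 CPM in members and 8.96, 13.4 and 30.6 CPM in none cells (log2 ratio 2.86 ± 0.21). In CD8 cells all 32 tested antiviral effectors were higher, with a median of 1.68.

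Surface antigens of the Ly6 family, named after their values were seen, were abundant members of the same list. Ly6c2 was at 474, 1045 and 2201 CPM in members against 223, 401 and 586 CPM in none cells, higher in 8 of 8 mice (log2 ratio 1.39 ± 0.10). Ly6a, or Sca-1, was at 317, 1560 and 2008 CPM against 333, 595 and 868 CPM, higher in 7 of 8 mice (log2 ratio 1.16 ± 0.10). The ranges of both genes overlapped between members and none cells.

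All 5 genes of ISG15 conjugation were higher in members over all lineages. Besides Isg15 itself these were Uba7, its activating enzyme (log2 ratio 1.37 ± 0.22), Ube2l6, its conjugating enzyme (1.56 ± 0.25), and the ligases Herc6 (1.95 ± 0.15) and Trim25 (1.42 ± 0.17). Herc6 was at 94.3, 119 and 155 CPM in members against 28.03, 32.5 and 35.3 CPM in none cells, without overlap. Ube2l6 did not pass in CD8 cells (log2 ratio 1.12 ± 0.35; edgeR adjusted p = 0.0508), and the other 4 did.

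Sensors of nucleic acid were higher for 8 of 12 tested genes, with a median log2 ratio of 1.63. Zbp1, which binds Z-form nucleic acid, was at 176, 321 and 464 CPM in members against 53.8, 63.0 and 86.9 CPM in none cells (log2 ratio 2.28 ± 0.12). Ifih1, which encodes the RNA sensor MDA5, was at 29.5, 62.8 and 118 CPM against 11.0, 12.8 and 16.8 CPM (2.31 ± 0.22), and Ifi213 of the PYHIN family had a log2 ratio of 2.05 ± 0.18. Aim2, Mavs, Cgas and Tmem173, which encodes STING, did not pass; Tmem173 had a log2 ratio of 0.16 ± 0.13.

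Of 13 signalling genes, 5 were higher and 1 lower. Irf7, the transcription factor that amplifies type I interferon production, was at 275, 297 and 360 CPM in members against 38.8, 47.6 and 69.9 CPM in none cells (log2 ratio 2.65 ± 0.12; edgeR adjusted p = 3.4e-19). The members' Irf7 levels lay closer together over mice than their Isg15 levels. Stat2 and Irf9, which encode parts of the complex, had log2 ratios of 1.95 ± 0.22 and 1.04 ± 0.18.

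Irf1, a target of interferon gamma and of type I interferon, was at 477, 537 and 666 CPM in members against 214.5, 335 and 469 CPM in none cells (0.82 ± 0.09). Irf8 was the gene of this list that was lower (log2 ratio -0.74 ± 0.21; edgeR adjusted p = 0.0314). It no longer passed with DESeq2 (adjusted p = 0.0938), without the mouse block, without LR mouse 1, LR mouse 2 or PBS mouse 9, in cells of 2000 to 6000 UMIs or with at least 3 gate genes. In CD8 cells Irf8 was again the gene called lower. There 1 gene of this list was lower with DESeq2, with each mouse left out and with at least 3 gate genes. The count was 0 in CD8 cells without the mouse block and with 2000 to 6000 UMIs. The kinases Jak1, Jak2 and Tyk2 and the factors Stat3, Stat4, Irf3 and Irf5 did not pass.

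None of the 5 tested receptor genes passed. Ifnar1 was at 21.1, 76.1 and 124 CPM in members against 53.8, 60.4 and 73.2 CPM in none cells (log2 ratio 0.27 ± 0.18; edgeR adjusted p = 0.573), and Ifnar2 had a ratio of 0.29 ± 0.17. Ifngr1 was at 321, 583 and 837 CPM against 281, 623 and 720 CPM (0.08 ± 0.09), a direction that turned with library totals in place of TMM scaling (-0.0010).

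Of the 10 ligand genes looked at, those other than Ifng were nearly absent. Ifna genes outside this list were not looked at. The cells were enriched for CD90.2 and sorted, so these counts do not describe the whole tumour. No UMI of Ifnb1, Ifna1, Ifna2, Ifna4, Ifna5, Ifne, Ifnk or Ifnl2 was found in any of the 16969 barcodes, and Ifnl3 had 1 UMI, outside T cells. Ifng, which encodes interferon gamma, had a UMI in 18.8% of members and 16.5% of none cells. It stood at 7.05, 95.3 and 151 CPM in members against 25.4, 139 and 309 CPM in none cells and did not pass (log2 ratio -0.51 ± 0.22; edgeR adjusted p = 0.254).

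Negative regulators of the pathway were higher for 3 of 8 tested genes. These were Trim21 (log2 ratio 1.33 ± 0.23), Socs1 (0.97 ± 0.12) and Socs3 (0.64 ± 0.13), of which the SOCS proteins block receptor kinases. Socs1 was at 92.8, 251 and 283 CPM in members and 86.1, 110 and 170 CPM in none cells, higher in 8 of 8 mice with overlapping ranges. Socs3 no longer passed with members of at least 3 gate genes (log2 ratio 0.48; edgeR adjusted p = 0.0682).

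Genes usually listed as interferon gamma targets were higher for 17 of 18 tested genes, with a median log2 ratio of 1.70; Serpina3g did not pass. Gbp6, a guanylate-binding protein, was at 91.6, 225.5 and 377 CPM in members against 24.8, 43.5 and 69.7 CPM in none cells (log2 ratio 2.44 ± 0.14). Iigp1, an immunity-related GTPase, was at 25.1, 47.7 and 118 CPM against 3.90, 9.20 and 17.2 CPM (2.62 ± 0.28). Neither overlapped between the groups.

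Cxcl10, a chemokine that attracts CXCR3-bearing T cells, was at 11.6, 108 and 377 CPM in members and 9.82, 11.9 and 18.9 CPM in none cells (log2 ratio 3.48 ± 0.27; edgeR adjusted p = 3.0e-12). It was found in 10.6% of members, and a few cells held much of it: 1 cell of PBS mouse 7 had 42 of that mouse's 58 UMIs. Among cells with all 6 gate genes the pooled level was 1533 CPM, against 48.9 CPM with 2.

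Of 18 genes of the MHC class I pathway, which displays peptides to CD8 T cells, 15 were higher, with a median log2 ratio of 0.49. Tapbp, which encodes tapasin, was at 296, 401 and 557 CPM in members against 199, 228 and 267 CPM in none cells (0.93 ± 0.09). The nonclassical class I gene H2-T23 was at 550, 887 and 1241 CPM against 465.5, 487 and 536 CPM (0.89 ± 0.08). B2m, the common light chain, was already abundant, at 2883, 3307 and 4040 CPM against 2502, 2741 and 3031 CPM (0.34 ± 0.06), and was named after its values were seen. Erap1, H2-Q6 and H2-Q7 did not pass, and in CD8 cells Nlrc5 did not pass either. With exactly 2 gate genes, as in 203 of the 330 members, 5 of the 18 passed, with a median of 0.22. In CD8 cells 14 of 18 were higher, but 10 without the mouse block and 4 with at least 3 gate genes. The median in CD8 cells was 0.47 in the main fit and 0.39 with at least 3 gate genes, on fewer cells and mice.

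**Figure D2:**
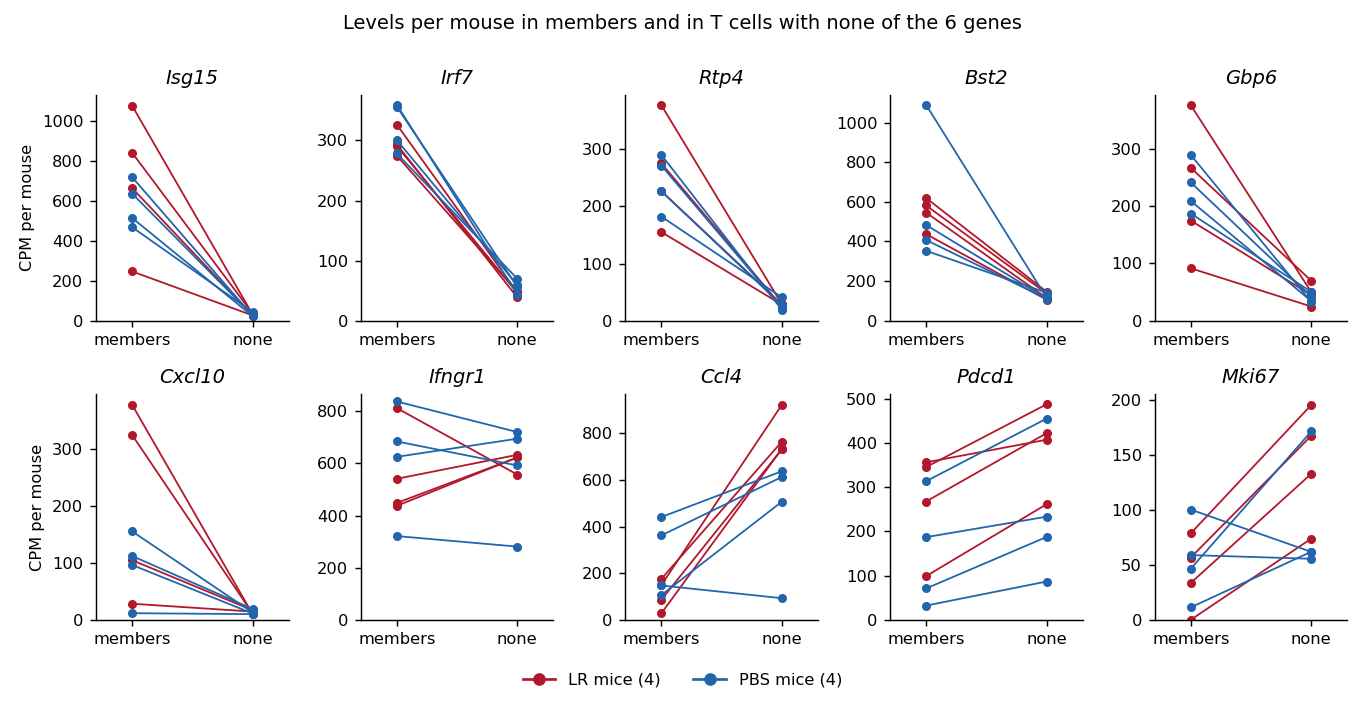
Level (CPM) of 10 genes in members, at left, and in T cells with none of the 6 gate genes, at right, with 1 line per mouse (4 LR in red, 4 PBS in blue). Isg15, Irf7 and Bst2 are higher in members of all 8 mice without overlap, Ifngr1 lines cross, and Pdcd1 is lower in members of all 8 mice.

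Of 12 naive and memory genes 3 were higher, among them the transcription factors Klf2 (log2 ratio 0.48 ± 0.12) and Lef1 (0.44 ± 0.13). Klf2 was at 673, 1179 and 2277 CPM in members against 413, 906 and 1736 CPM in none cells, higher in 6 of 8 mice with overlapping ranges. With at least 3 gate genes Klf2 was no longer called (log2 ratio 0.03) and Lef1 turned to -0.091, and in that setting 1 gene of the list was higher and 2 lower. Without the mouse block none of the 12 passed. With DESeq2, or without LR mouse 1 or LR mouse 4, only 1 did. Without PBS mouse 8 or with exactly 2 gate genes 7 did. In cells of 2000 to 6000 UMIs 1 of the 12 passed, with a median of 0.06, and 0 did in CD8 cells.

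Exhaustion genes were lower for 7 of 12 tested genes, with a median log2 ratio of -0.61. Havcr2, which encodes the inhibitory receptor TIM-3, was at 0, 22.4 and 77.2 CPM in members against 13, 75.6 and 150 CPM in none cells (log2 ratio -1.21 ± 0.23; edgeR adjusted p = 0.00033). Rgs16, a regulator of G protein signalling (log2 ratio -1.01 ± 0.17), and Tox, the factor that maintains the exhausted state (-0.85 ± 0.15), were also lower in 8 of 8 mice. Pdcd1, which encodes PD-1 and was named after its values were seen, was at 32.1, 227 and 356 CPM in members against 86.5, 334 and 487 CPM in none cells (-0.59 ± 0.12). With at least 3 gate genes 4 of the 12 stayed lower and the Pdcd1 ratio was -0.27 (edgeR adjusted p = 0.532). In CD8 cells 8 of 12 were lower, and without the mouse block none was, in either fit. In cells of 2000 to 6000 UMIs, 5 of 11 tested exhaustion genes were lower over all lineages, with a median of -0.64. In CD8 cells of that depth 3 of 10 were lower.

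Cycling genes were lower for 10 of 12 tested genes, with a median log2 ratio of -0.90, and in CD8 cells also for 10 of 12, with a median of -1.50. Rrm2, a subunit of ribonucleotide reductase, was at 0, 14.5 and 46.4 CPM in members against 25.8, 64.4 and 134.5 CPM in none cells (log2 ratio -1.98 ± 0.29). Cdk1, the mitotic kinase, had a ratio of -1.35 ± 0.34 and Mki67, the proliferation marker, of -0.99 ± 0.24 (Mki67 was named after its values were seen). With cells of 2000 to 6000 UMIs alone, 4 of the 12 genes could be tested and 2 were lower. Over all lineages 6 of the 12 were lower with DESeq2, 3 with exactly 2 gate genes, 11 with at least 3, and none without the mouse block, where 1 was lower in CD8 cells.

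Of 14 cytotoxic and effector genes 1 was higher, the cathepsin Ctsw, and 3 were lower; Ctsw did not pass in CD8 cells, and no gene of the list was higher without LR mouse 2, 3 or 4 or without PBS mouse 6, 7 or 8. Ccl3 and Ccl4, chemokines of activated T cells, were lower, with log2 ratios of -1.96 ± 0.28 and -1.53 ± 0.24, as was the pore-forming Prf1 (-0.76 ± 0.16). Ccl4 was at 28.2, 148 and 441 CPM in members against 92.6, 684 and 923 CPM in none cells, lower in 7 of 8 mice. In cells of 2000 to 6000 UMIs none of the 3 passed over all lineages, and Ccl4 had a ratio of -0.41 (edgeR adjusted p = 0.60).

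Of 11 stress and dissociation genes the heat shock genes Hspa1a (log2 ratio -1.57 ± 0.22) and Hspa1b (-1.13 ± 0.24) were lower and none was higher. Neither passed without the mouse block, and Hspa1b did not pass with DESeq2 (adjusted p = 0.0881). None of the 8 tested regulatory T cell genes passed over all lineages, and Ahr, the receptor for tryptophan catabolites, was at 0, 11.5 and 47.2 CPM in members against 11.5, 13.6 and 21.4 CPM in none cells (log2 ratio 0.43 ± 0.33; edgeR adjusted p = 0.638).

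**Figure D3:**
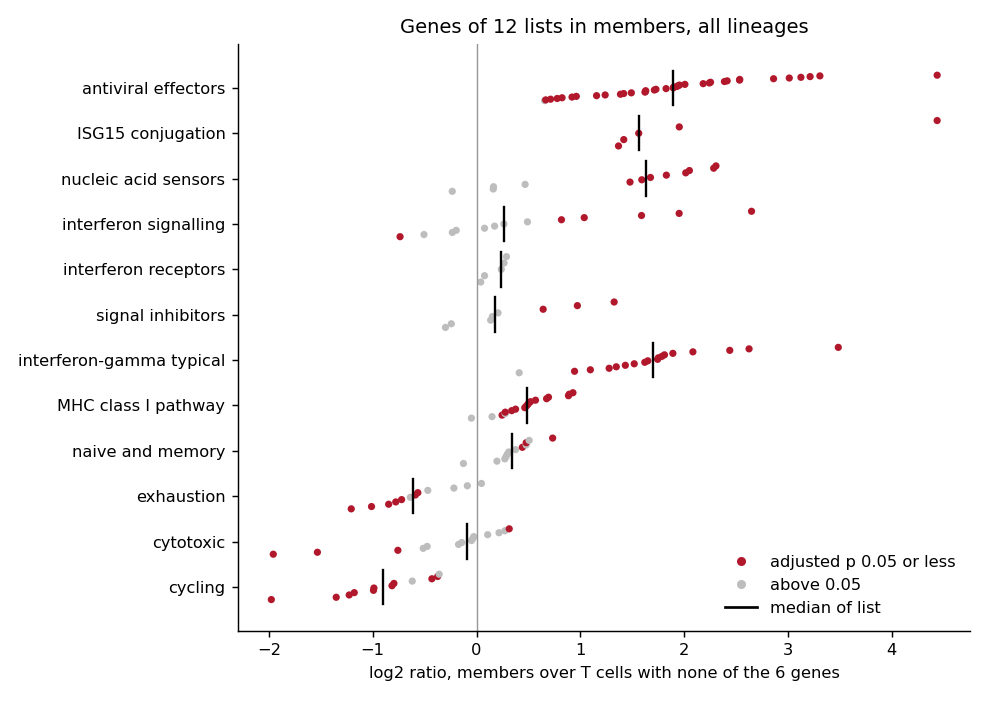
Log2 ratio of members over T cells with none of the 6 gate genes for each tested gene of 12 lists, all lineages, with the median of each list as a black bar and genes with an edgeR adjusted p of 0.05 or less in red. The antiviral list lies around 1.89 and the receptor list around 0.24, and cycling genes lie around -0.90.

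The promoter core was present in 59 of 201 genes with a window among the 250 that were higher in members (29.4%). It was present in 2 of 87 among the 123 that were lower (2.30%) and in 205 of 6223 tested genes that were not called (3.29%). Among all 27025 genes with a window it was present in 1079 (3.99%). Of the genes described above, Irf7 and Oasl2 were higher in members and held no match in their windows, whereas Bst2 held 2 and Slfn5 and Cxcl10 each held 1.

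Markers of other cell types were partly present in members. A UMI in at least 1 member was found for 7 of 12 myeloid, 2 of 6 B cell, 3 of 6 NK cell and 1 of 5 plasmacytoid markers. The plasmacytoid marker found was Bst2, which is also on the antiviral list. It had a UMI in 68.8% of members and 32.7% of none cells, and was higher in members of 8 of 8 mice. Csf1r, Adgre1, Cd14, S100a8 and S100a9 of the myeloid list had no UMI in the 330 members, nor did the B cell markers Ms4a1, Cd79a and Pax5, the NK markers Ncr1, Klrb1c and Klra8, or the plasmacytoid markers Siglech, Cox6a2, Ccdc180 and Klk1. The 12 myeloid markers summed to 70.8 to 731 CPM in members and 120.5 to 231 CPM in none cells, and were higher in members of 1 of 8 mice, LR mouse 4. The B cell markers summed to 56.6 to 217 CPM in members and 52.4 to 205 CPM in none cells, were higher in members of 6 of 8 mice, and had a UMI in 40.3% of members and 33.3% of none cells. The NK cell markers summed to 21.1 to 221 CPM in members and 53.4 to 126 CPM in none cells, and were higher in members of 2 of 8 mice. The part of these B and NK cell markers in the gene results was not tested. In LR mouse 4 the class II gene H2-Aa, named after its values were seen, was at 1581 CPM in members, against at most 12.6 CPM in members of any other mouse. It is among the genes called higher (log2 ratio 2.18 ± 0.54; edgeR adjusted p = 0.00945), and DESeq2 gave it a ratio of -0.98, so that this call rests on 1 mouse. Cd74, the class II invariant chain, reached 10 or more UMIs in 10 members, 5 of them in LR mouse 4, and in 107 none cells. Scrublet marked 0 of these 10 members. Without the barcodes of 10 or more Cd74 UMIs, 209 genes were higher and 110 lower, with 36 of 36 tested antiviral effectors still higher and the Cxcl10 ratio at 3.35.

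Lineage was read from Cd8a, Cd8b1, Cd4 and Foxp3, which the gate did not use. Of 330 members 210 had a CD8 gene without Cd4 or Foxp3 (63.6%), 43 had Cd4 alone (13.0%), 28 had Foxp3 (8.48%), 16 had Cd4 and a CD8 gene (4.85%), and 33 had none of them (10.0%). Averaged over mice, CD8 cells were 63.7% ± 15.6 of members and 59.2% ± 13.2 of none cells (SD, n = 8), higher in members of 6 of 8 mice (exact sign-flip permutation p = 0.133, two-sided). Cells of undetermined lineage were 9.27% ± 4.92 of members and 14.5% ± 5.54 of none cells (exact sign-flip permutation p = 0.0234; adjusted over 5 lineages 0.117). No lineage share differed after adjustment. Shares of Cd4 and Foxp3 cells differed by 1.44 and -1.69 percentage points, with exact permutation p-values of 0.438 and 0.188. Detection limits these labels, since 38.9% of T cells with a Foxp3 UMI, which are mostly CD4 cells, also had a CD8 UMI, and members were deeper than none cells in every lineage. Cd8a itself was at 200.5, 453 and 626 CPM in members against 279, 478 and 579 CPM in none cells (log2 ratio -0.01 ± 0.09, which turned to 0.00093 with DESeq2).

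The share of T cells in the gate was then compared between LR and PBS mice, 4 against 4. It was 2.65%, 5.17%, 5.63% and 4.55% in LR mice 1 to 4 (33 of 1244, 51 of 987, 24 of 426 and 36 of 791 T cells), against 3.13%, 3.37%, 1.94% and 2.37% in PBS mice 6 to 9 (18 of 575, 91 of 2699, 33 of 1703 and 44 of 1860). Of the LR mice 3 lay above every PBS mouse, and LR mouse 1 lay within the PBS range. The share averaged 4.50% ± 1.31 over the LR mice, against 2.70% ± 0.67 over those given PBS (mean ± SD of 4 mice a group), and the difference did not pass (two-sided exact permutation p = 0.0857; adjusted over 4 comparisons 0.171; the smallest p of this design is 0.0286).

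Median depth per T cell was 3518 to 3993 UMIs in LR mice and 3061 to 3707 in PBS mice, and depth changes detection. After each cell was thinned to 1500 UMIs, with 1246 shallower T cells left out (389 in LR and 857 in PBS mice), 117 members remained. The share was then 1.19%, 2.50%, 2.12% and 2.13% in LR mice, against 0.585%, 1.24%, 0.553% and 1.12% in PBS mice. These shares rested on few cells, with 13, 22, 8 and 15 members in LR mice 1 to 4. PBS mice 6 to 9 had 3, 30, 8 and 18, the first of them 3 of 513 cells. Thinned shares averaged 1.98% ± 0.56 over the LR mice, against 0.875% ± 0.36 over those given PBS (SD; two-sided exact permutation p = 0.0571). The hashtag share of members also differed between the arms: its median per mouse was 88.2% to 89.9% in LR mice and 92.0% to 95.9% in PBS mice. With a hashtag share of at least 95%, 57 members of 2065 T cells were left, and the share in the gate averaged 5.56% ± 6.80 with LR, against 2.13% ± 1.499 with PBS (SD; exact permutation p = 0.457), with at least 1 mouse at 0 in each arm.

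Among CD8 cells the share was 3.05%, 5.82%, 5.06% and 4.69% in LR mice, against 2.82%, 3.98%, 2.19% and 2.63% in PBS mice. It averaged 4.66% ± 1.17 with LR, against 2.91% ± 0.77 with PBS (SD; two-sided exact permutation p = 0.0571; adjusted 0.171). CD4 cells without Foxp3 gave 5.06% ± 1.68 with LR, against 3.26% ± 1.62 with PBS (SD; exact permutation p = 0.200), on 2 to 5 members per LR mouse and 3 to 15 per PBS mouse. With at least 3 gate genes the order of CD4 means turned, to 0.956% in LR and 1.15% in PBS mice. Foxp3 cells gave 3.70% ± 2.80 with LR, against 2.54% ± 1.65 with PBS (SD; exact permutation p = 0.514). LR mouse 1 had 0 members among 44 Foxp3 cells, which allows a share of up to 6.82%, so that its level was not distinguishable from the others at this depth.

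**Figure D4:**
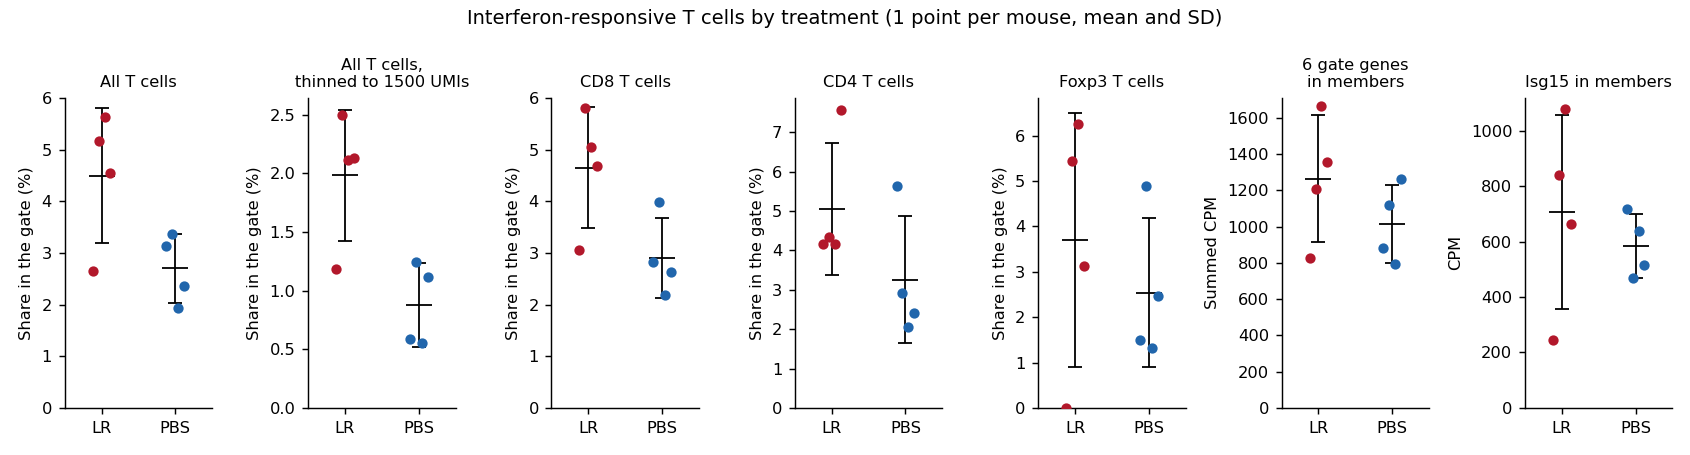
Share of T cells in the gate (percent) in all T cells before and after thinning and in CD8, CD4 and Foxp3 cells, and the CPM of the summed gate genes and of Isg15 in members, with 1 point per mouse and the mean with SD (4 LR at left, 4 PBS at right in each panel). Of the LR mice 3 lie above all PBS mice in all T cells, and the Isg15 levels of the groups overlap.

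The levels of the gate genes chose the members, so they are given by treatment as a description, with no test. The 6 genes summed to 825, 1206, 1667 and 1359 CPM in members of LR mice 1 to 4, against 881, 1121, 796 and 1262 CPM in members of PBS mice 6 to 9. This averaged 1264 ± 350 CPM with LR, against 1015 ± 214 CPM with PBS (SD), and the ranges overlapped. Isg15, which the gate did not use, was at 247, 841, 1077 and 664 CPM in LR mice, against 719, 468, 637 and 515 CPM in PBS mice. Both the lowest and the highest Isg15 level were in LR mice, and they averaged 707 ± 351 CPM with LR, against 585 ± 114 CPM with PBS (SD; exact permutation p = 0.571).

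Over all genes tested within members, LR and PBS mice differed at 0 of 2636 (0%) by edgeR, with 120 genes at an unadjusted p under 0.05 and 1 called by DESeq2. The 31 tested antiviral effectors had a median log2 ratio of 0.18 for LR over PBS, beside 0.00 over all genes. Log2 ratios were 0.29 ± 0.29 for Isg15 and -0.08 ± 0.17 for Irf7 (SE). The 8 tested exhaustion genes had a median of 0.92, with Pdcd1 at 1.11 ± 0.51, and none of them passed. The 7 tested regulatory T cell genes also had a median of 0.92, from 0.55 to 1.22, and none passed. Foxp3 cells were 0%, 15.7%, 16.7% and 11.1% of members in LR mice 1 to 4. In PBS mice 6 to 9 they were 5.56%, 7.69%, 6.06% and 4.55%. Among none cells, Foxp3 cells were 3.31%, 15.1%, 14.1% and 17.0% in LR mice 1 to 4. In PBS mice 6 to 9 they were 11.6%, 5.49%, 9.66% and 4.45% of none cells. The fit over all members mixes lineages. A fit in CD8 members alone was also made, but its ratios are not given here. The part of lineage in the ratios above was not tested. With 18 to 91 members per mouse, changes of the size of 1 on the log2 scale were recovered for 58.3% of genes in simulated data of this comparison, over 2600 genes. The simulation gave every gene a dispersion of 0.05 and means pooled over members and none cells. It did not use the spread measured between mice, so 58.3% is not the power of the real comparison.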

How the data were processed

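The deposited gene and hashtag matrices hold raw UMI counts, made by the authors with Cell Ranger 4.0.0 on GRCm38, per the submitters' processing notes; the annotation is not given in the sources used here. Barcodes were filtered and gated as described, and doublets were marked with Scrublet (scanpy 1.11.5), which marked 12 of 330 members and removed none from the main counts. UMIs were summed per mouse for mice with at least 10 cells on each side. Genes were tested with edgeR 4.0.16 (R 4.3.3; quasi-likelihood test, TMM scaling, filterByExpr, mouse as a block, Benjamini-Hochberg over all genes tested, threshold 0.05), with DESeq2 1.42.0 as an alternative. Treatment was tested over mice with exact permutation tests and no pairing; the planned test of the summed gate genes is not given, since these genes chose the members. The SE of an edgeR log2 ratio is its absolute value divided by the square root of the test's F statistic, not an SE given by the fit. Levels are UMIs per 1e6 UMIs of the summed cells (CPM), and UMIs from 5′ ends are not scaled by length. In simulated counts for members against none cells, over 8202 genes, 61.2% of genes changed by 1 on the log2 scale and 94.7% of those changed by 2 were recovered, with 10 false calls. Both simulations gave every gene the same dispersion of 0.05, not the spread measured between mice. The members and gene lists were chosen with earlier results of these data known. Genes named are the gate genes, Isg15, Irf7, Irf1, Ifng, Ifnar1, Ifnar2, Ifngr1, Ahr, Cd8a, Cd4 and Foxp3. The rule adds up to 3 of each list with the largest change that passed. It also adds 10 in each direction outside the lists, of which a selection is given. Slfn5 entered by this rule from the antiviral list in CD8 cells, and Bst2 from the plasmacytoid list. Other genes, among them Irf8, Irf9 and those listed as not passing, were named after their values were seen. Alternatives were another tool, scaling, filter, gate, depth, mitochondrial limit and hashtag limit, and each mouse left out. Some genes that the rule names are not reported here. The 3761 barcodes without 1 clear hashtag were not used.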

Additional observations from a re-analysis of the deposited data

Results flagged for a closer look

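Of 79 groups of mice examined, 8 held a mouse far from the others. The nominal rate of the rule is about 1 in 20 for independent groups. These groups share mice and cells, and include gate genes and H2-Aa, named after its values were seen. The count can therefore not be set against that rate. LR mouse 3 stood apart in its members for Cmpk2 (189 CPM, others 76.6 to 123), Rsad2 (212 CPM, others 28.2 to 102) and Xcl1 (330 CPM, others 5.66 to 46.4). PBS mouse 6, with 18 members, stood apart for Bst2 (1090 CPM, others 353 to 620) and Jaml (255 CPM, others 48.2 to 130). LR mouse 4 stood apart for H2-Aa (1581 CPM, others 0 to 12.6), for Prf1 (170 CPM, others 37.5 to 86.5) and, among LR mice, for the share of CD4 cells in the gate (7.58%, others 4.17% to 4.35%, on 5 members of 66 CD4 cells).

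Among barcodes that the T cell rule left out, 9.09% of the 66 with a Lyz2 UMI held at least 2 gate genes. Of these 66 barcodes, 51 also had a CD3 UMI. The hashtag named for LR mouse 5, which no sample label describes, had 5699 UMIs, 0.0280% of all 20359282 hashtag UMIs, and 0 barcodes were assigned to it.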

How the results depend on the processing

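Of the gene values followed under the alternatives, 1747 kept their direction and side of the threshold, 132 lost the call, 12 gained one and 15 reversed. Against 250 higher and 123 lower genes, the counts without the replicate block were 164 and 15, with cells of 2000 to 6000 UMIs 138 and 17, and with exactly 2 gate genes 109 were higher. Lower genes numbered 58 with DESeq2, 216 with library totals, 277 with no filter on low counts, and 76 (without PBS mouse 9) to 140 with a mouse left out. In CD8 cells, against 202 and 150, the counts without the replicate block were 129 and 22, with 2000 to 6000 UMIs 87 and 15, with at least 3 gate genes 124 were higher, and lower genes were 85 with DESeq2 and 298 with no filter. Between LR and PBS members, no filter gave 26 higher and 3 lower, DESeq2 1 lower, and leaving out a mouse 0 to 1 each way. Library totals moved the median of all genes to -0.10.

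With at least 3 gate genes, LR minus PBS was -0.19 percentage points for the CD4 share and -59.4 CPM for Isg15; the summed gate genes, which chose the members and so say nothing of response strength, differed by -214 CPM; leaving out a mouse moved Isg15 between -0.606 (without LR mouse 3) and 276 CPM. Members minus none was 7.65 points for CD8 with at least 3 genes (exact sign-flip permutation p = 0.0469), 3.35 to 6.26 with a mouse left out, -3.65 (thinned) and -1.85 (3 genes) for CD4, 1.11 (3 genes) for Foxp3, -0.0732 (thinned) for cells with both, and -4.02 (thinned) for undetermined cells. Log2 ratios that reversed were those of Ifng (0.19 with 2000 to 6000 UMIs), Ifnar2 (-0.044 with exactly 2 genes), Ahr (-0.030 with exactly 2), Lef1 (-0.091 with at least 3), H2-Aa (-0.98 with DESeq2), Ifngr1 (-0.0010 with library totals, -0.0013 with no filter, -0.26 and in CD8 cells -0.10 with 2000 to 6000 UMIs, -0.024 to 0.13 with a mouse left out) and Cd8a (0.00093 with DESeq2, 0.12 with 2000 to 6000 UMIs, 0.015 with at least 3 genes, -0.055 to 0.021 with a mouse left out). The cause was not tested. A hashtag share of 95% left 57 members and gave no value for CD4 cells. No paired analysis was possible because LR mice 1 to 4 and PBS mice 6 to 9 share no number; within mice the block was the design. Depth limits the 18 to 91 members per mouse.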

Other observations

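Among genes outside the lists, Rnf213, a large ubiquitin ligase, was at 103, 188 and 266 CPM in members (lowest, median and highest of 8 mice) against 26.7, 39.4 and 60.5 CPM in none cells, without overlap (log2 ratio 2.22 ± 0.16; edgeR adjusted p = 3.5e-13). Jaml, an adhesion molecule of T cells, was at 48.2, 89.6 and 255 CPM against 17.0, 24.4 and 34.9 CPM (1.99 ± 0.18). Pml, which forms nuclear bodies, had a log2 ratio of 1.93 ± 0.17 and was higher in 8 of 8 mice.

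On the lower side, Xcl1, a chemokine that attracts cross-presenting dendritic cells, was at 5.66, 35.5 and 330 CPM in members against 88.5, 256 and 485 CPM in none cells (log2 ratio -1.99 ± 0.23; edgeR adjusted p = 2.4e-08), lower in 8 of 8 mice. In cells of 2000 to 6000 UMIs its ratio was -0.50 (edgeR adjusted p = 0.708). Sec23b, of the vesicle coat that leaves the endoplasmic reticulum, was at 5.15, 12.9 and 23.6 CPM in members against 28.3, 32.1 and 41.7 CPM in none cells (-1.21 ± 0.28), and Shmt2, the mitochondrial serine hydroxymethyltransferase, at 17.0, 30.3 and 49.3 CPM against 49.9, 67.1 and 71.5 CPM (-0.89 ± 0.20). Neither gene overlapped between members and none cells, and in CD8 cells neither passed (edgeR adjusted p = 0.107 and 0.0703). The members' levels rested on few UMIs, 20 of Sec23b and 46 of Shmt2 over all 8 mice.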
